A study of Mus musculus with 12 samples.

Results

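The *Yap1*, *Tead* and CCN genes were followed across the chondrocyte compartments of the embryonic mouse forelimb. The 10 genes were picked by symbol from the 36186 gene rows of the RNA-Seq table. *Yap1* and *Wwtr1* (Taz) encode transcriptional co-activators, *Tead1* and *Tead3* encode DNA-binding partners of these, and *Ctgf* (*Ccn2*), *Cyr61* (*Ccn1*), *Nov* (*Ccn3*), *Wisp1* (*Ccn4*), *Wisp2* (*Ccn5*) and *Wisp3* (*Ccn6*) are the CCN family of secreted matricellular proteins. The 12 libraries came from the forelimb zeugopod of E15.5 embryos on a mixed 129/CD-1 background, with 3 libraries each from WT resting, WT proliferative and WT hypertrophic chondrocytes and 3 from *aadd* mutants. The GEO labels write hyperproliferative for the hypertrophic samples and resting for the *aadd* samples. In *aadd* embryos, *Hoxa9*, *Hoxa10*, *Hoxa11*, *Hoxd9*, *Hoxd10* and *Hoxd11* are all homozygous for frameshift alleles, made by a LoxP insertion with a small deletion in the first coding exon, in every cell of the embryo. Chondrocytes were taken by laser capture microdissection (LCM) with some perichondrium attached, and the small *aadd* element was captured whole, so that *aadd* against WT resting compares a whole element with 1 compartment. The study describes the samples as independent sets without naming litters or animals, and *P* values measure the spread between these samples.

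Values are NRPKM, read numbers scaled to transcript length and library total (RPKM) and normalized further between libraries. Depth was about 1890000 to 3240000 reads per library, and 1 read on a transcript of 1 kb was worth 0.309 to 0.53 NRPKM, so a gene near 2 NRPKM rests on few reads. Transcripts of the targeted Hox genes were still present in *aadd*, at 5.17 to 11.1 NRPKM for *Hoxa11* and 25.1 to 35.4 for *Hoxd11* (11.3 to 30.5 and 4.34 to 7.31 in WT resting), and a frameshift need not remove a transcript. The hypertrophic libraries were not alike. In replicates 2 and 3 the summed NRPKM of 10 osteoclast markers was 1308 and 963 against 70.3 in replicate 1, that of 10 endothelial markers 301 and 220 against 23.5, and that of 10 macrophage markers 420 and 359 against 33.3, while 10 cartilage matrix genes summed to 693 and 970 against 3049. Most of the macrophage sum was *Cd68*, *Tyrobp* and *Csf1r* (174, 164 and 56.7 NRPKM in replicate 2). Other markers of that list, *Emr1*, *Cx3cr1*, *Aif1* and *C1qa*, were at 3.1 or less in every hypertrophic library. Hypertrophic values are therefore given library by library for the members and the genes called beside them. The summed NRPKM of 10 hypertrophic markers was highest in the hypertrophic libraries (1794 to 3830, against 648 to 921 in WT proliferative and 105 to 124 in WT resting). This did not hold for each marker. *Ihh*, for example, was higher in WT proliferative than in hypertrophic replicates 2 and 3. *Mmp13* was at 3.05 in hypertrophic replicate 1, below WT proliferative (3.81 to 6.24), but at 735 and 661 in replicates 2 and 3. *Spp1* was at 24.1 in replicate 1, against 1080 and 979. The replicates thus differed in hypertrophic markers as well.

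The Hippo pathway is a kinase cascade in which Mst kinases, encoded by *Stk3* and *Stk4*, activate the Lats kinases, which phosphorylate Yap and Taz and hold them out of the nucleus. Unphosphorylated Yap and Taz bind Tead factors and turn on targets, of which *Ctgf* and *Cyr61* are the ones most often used as readouts. CCN proteins bind integrins, proteoglycans and growth factors in the matrix. In growth cartilage *Ctgf* is needed for normal endochondral ossification, *Wisp1* is a Wnt-responsive gene expressed in bone-forming cells, and loss of human *WISP3* causes a progressive disease of articular cartilage.

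A difference was called at an unadjusted limma *P* up to 0.05 with a fold change (FC) of at least 2 between WT compartments or 1.5 between *aadd* and WT resting, and Benjamini-Hochberg adjusted *P* values over all 10936 genes tested are given beside the members' values and, in the pathway lists, beside each call. To be tested, a gene had to reach 5 NRPKM in 3 or more libraries, which 8 of the 10 genes did. *Tead3* and *Wisp2* did not, and are described by their values. In the test over all 4 groups, 3 of the 8 genes were called at *P* up to 0.05 (*Cyr61*, *Wisp1* and *Wisp3*), against 31.0% of all genes tested. The same 3 kept an adjusted *P* under 0.05 (0.0079, 0.0105 and 0.00687), against 13.8% of all genes. Without WT hypertrophic replicate 3 only 1 of the 8 did, *Wisp3*. The share over all genes ran from 5.74% to 28.1% as single libraries were left out. The transcriptional members *Yap1*, *Wwtr1* and *Tead1* had adjusted *P* of 0.839, 0.284 and 0.328, and *Ctgf* and *Nov* had 0.342 and 0.173.

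**Figure D1:**
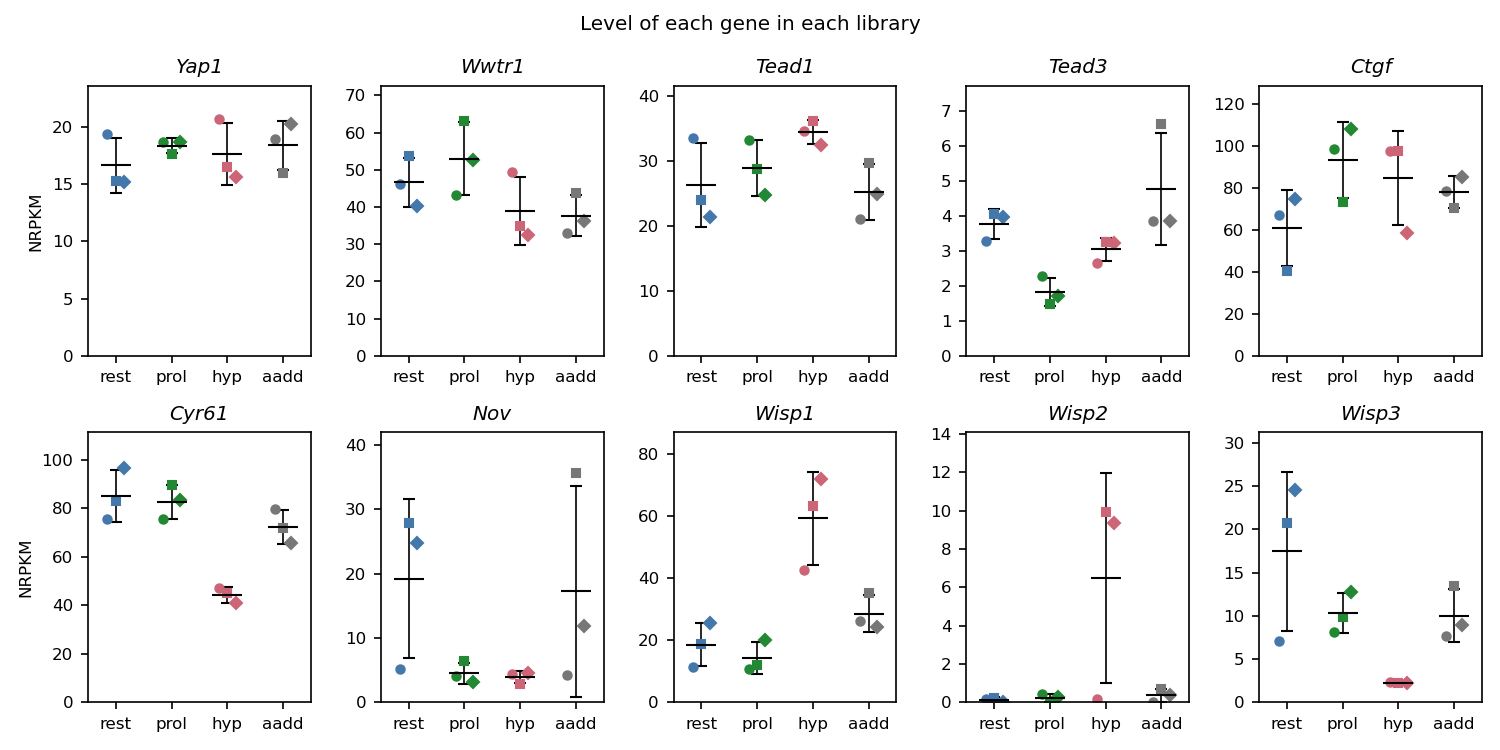
NRPKM of the 10 genes (vertical axes from 0, a scale for each gene) in WT resting (rest), WT proliferative (prol), WT hypertrophic (hyp) and *aadd* libraries. Circles, squares and diamonds are replicates 1, 2 and 3, and bars are the mean and SD of n = 3. *Cyr61* and *Wisp3* are lowest and *Wisp1* highest in the hypertrophic libraries, while *Yap1* lies between 15.2 and 20.7 NRPKM in all 12.

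*Yap1*, on mm10 chr9:7932001-8004596, varied little. It was at 19.4, 15.3 and 15.2 NRPKM in WT resting, 18.7, 17.6 and 18.7 in WT proliferative, 20.7, 16.5 and 15.6 in WT hypertrophic, and 18.9, 16.0 and 20.2 in *aadd*. All groups overlapped. The 95% confidence interval of its log2 FC ran from -0.25 to 0.55 for WT proliferative against WT resting, from -0.51 to 0.37 for WT hypertrophic against WT proliferative, and from -0.28 to 0.58 for *aadd* against WT resting, so that none of these intervals reached a 2-fold difference.

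*Wwtr1*, on chr3:57455644-57575910, was the more abundant co-activator per length in every library. It was at 46.1, 53.6 and 40.4 NRPKM in WT resting, 43.3, 63.1 and 52.7 in WT proliferative, 49.3, 34.9 and 32.5 in WT hypertrophic, and 33.1, 43.8 and 36.2 in *aadd*. The groups overlapped, and no comparison was called. Its ratio to *Yap1* within a library, which does not depend on scaling between libraries, was 2.38 to 3.51 in WT resting, 2.32 to 3.58 in WT proliferative, 2.08 to 2.38 in WT hypertrophic and 1.75 to 2.73 in *aadd*.

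*Tead1* was the main Tead transcript. At chr7:112679320-112906805, it measured 33.5, 23.9 and 21.3 NRPKM in WT resting, 33.2, 28.8 and 24.7 in WT proliferative, 34.6, 36.1 and 32.4 in WT hypertrophic, and 21.0, 29.7 and 24.9 in *aadd*. The hypertrophic libraries lay at or above the upper end of the others, with overlap. The log2 FC against WT resting was 0.41 ± 0.21 (SE; adjusted *P* = 0.275) in limma.

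Of the 4 Tead transcripts summed, *Tead1* made up 52.3% to 78.3% over the 12 libraries. *Tead2*, a paralog prominent in early embryos, made up 8.70% to 38.4%. Its level rose in WT hypertrophic (16.0, 26.4 and 20.5 NRPKM) over WT proliferative (13.8, 3.19 and 7.17), with a log2 FC of 1.58 ± 0.53 (SE; unadjusted *P* = 0.0237, adjusted *P* = 0.209 in limma). WT resting, at 21, 13.7 and 8.09, overlapped WT hypertrophic, and *Tead2* was not called between them (log2 FC 0.63 ± 0.38, unadjusted *P* = 0.147 in limma). *Tead4* reached 7.26 NRPKM at most and was not tested.

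*Tead3*, at chr17:28331673-28350805, was low throughout and was the one transcriptional member whose compartments separated. It was at 3.29, 4.06 and 3.99 NRPKM in WT resting and at 2.29, 1.5 and 1.71 in WT proliferative. The proliferative values rest on about 16.7, 7.99 and 8.98 reads. The hypertrophic values were 2.66, 3.25 and 3.24, and those of *aadd* 3.86, 6.64 and 3.87. Every proliferative library lay below every resting and every hypertrophic one, and every hypertrophic library lay below every resting one. Among the genes tested, 24.0% separate without overlap between WT resting and WT proliferative, 24.2% between WT hypertrophic and WT proliferative and 32.0% between WT hypertrophic and WT resting. In the fit without the filter on low values, where it could be tested, the log2 FC of WT proliferative against WT resting was -1.02 (unadjusted *P* = 0.00577, adjusted *P* = 0.226 in limma).

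RefSeq promoter sequences (GRCm38.p6) were at hand for 5 of the 10 genes, matched by gene ID. The Tead core motif GGAATG was searched on both strands, where the other strand reads CATTCC, over the 250 bases before each start. The 5 genes have 8 start windows, of which 6 held it, and 2 of these share a single *Wwtr1* site. The windows with it belong to *Yap1*, *Wwtr1*, *Tead3* and *Cyr61*, and that of *Wisp3* had none. Among all 32851 promoter windows of this length, 12.64% held it. The windows around the matches are shown 5′ to 3′ on the gene's own strand, which is the minus strand in each case, with the motif in capitals, because *Cyr61* is a standard Tead readout and the other genes encode its regulators. The first base of the motif lies 141 bases before the start in *Yap1* (chr9:8004720-8004749), 136 or 170 in *Wwtr1* depending on which of its starts is taken (chr3:57576029-57576058), 182 in *Tead3* (chr17:28350970-28350999) and 103 in *Cyr61* (chr3:145650071-145650100). A further *Tead3* start has a pair of matches (both within chr17:28350706-28350735), and another *Tead3* start has none. A match describes these letters only.
Yap1: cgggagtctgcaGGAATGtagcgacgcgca
Wwtr1: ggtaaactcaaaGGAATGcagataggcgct
Tead3: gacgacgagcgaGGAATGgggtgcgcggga
Tead3, further start: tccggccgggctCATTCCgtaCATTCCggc
Cyr61: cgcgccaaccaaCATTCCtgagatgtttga

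The total of the CCN genes was alike in the 4 groups while its make-up differed. The 6 CCN transcripts summed to 201 ± 40.9 NRPKM in WT resting, 205 ± 19.4 in WT proliferative, 201 ± 17.5 in WT hypertrophic and 207 ± 17.8 in *aadd* (mean ± SD, n = 3). *Ctgf* and *Cyr61* together made up 64.7% to 85.6% of this in WT resting, 84.0% to 88.2% in WT proliferative, 53.1% to 74.6% in WT hypertrophic and 62.5% to 80.5% in *aadd*. *Wisp1* made up 21.9% to 38.3% in WT hypertrophic, 6.89% to 10.4% in WT resting, 5.39% to 8.89% in WT proliferative and in *aadd* at least 12.4%, with a median of 13.4%, above every WT resting and proliferative library.

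**Figure D2:**
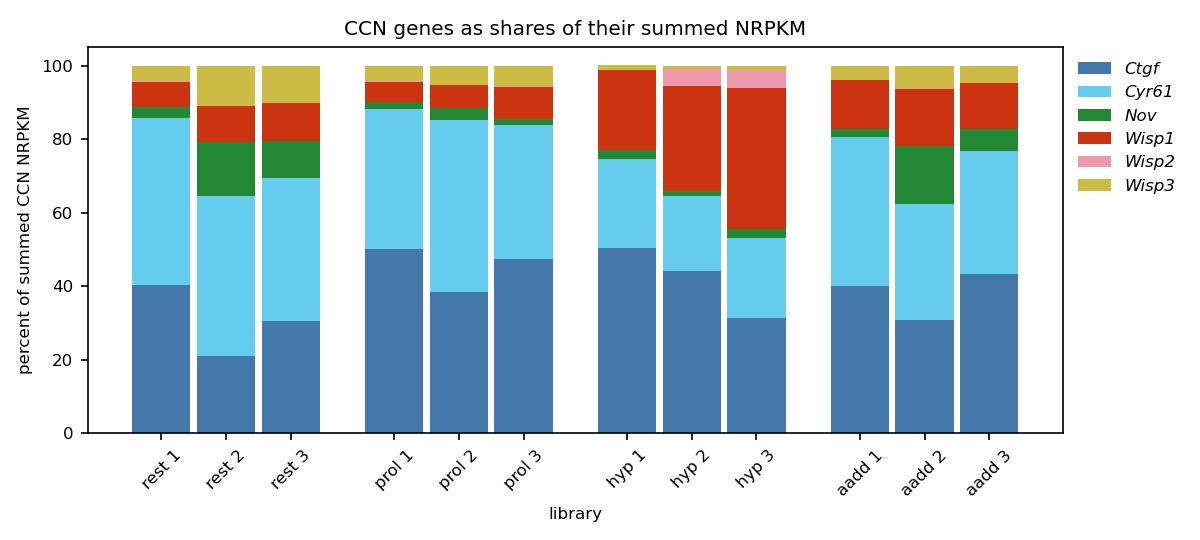
Each bar is 1 library, divided into the percent of the summed NRPKM of the 6 CCN genes that each gene contributes (rest, prol and hyp are the WT compartments, numbered by replicate). *Wisp1* takes 21.9% to 38.3% of the hypertrophic bars and *Wisp3* at most 1.21%, while *Nov* reaches 14.6% in WT resting and 15.7% in *aadd*.

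*Cyr61*, at chr3:145646971-145649985, was lower in the hypertrophic compartment than elsewhere. It was at 75.7, 83.0 and 96.5 NRPKM in WT resting, 75.5, 89.5 and 83.2 in WT proliferative and 47.3, 45 and 40.9 in WT hypertrophic. The *aadd* libraries, at 79.6, 71.8 and 65.7, overlapped WT resting. No hypertrophic library reached the lowest value of any other group, replicate 1 included. Against WT proliferative the log2 FC was -0.90 ± 0.17 (SE; unadjusted *P* = 0.00153, adjusted *P* = 0.12), and against WT resting -0.93 ± 0.17 (adjusted *P* = 0.0339 in limma). Both fell short of the 2-fold limit, so neither was called. In captured tissue, fewer cells of a type and less RNA per cell cannot be told apart.

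*Ctgf*, at chr10:24595442-24598682, did not follow *Cyr61*. It was at 67.2, 40.3 and 75.0 NRPKM in WT resting, 98.7, 73.4 and 108 in WT proliferative, 97.6, 97.6 and 58.7 in WT hypertrophic, and 78.5, 70.3 and 85.4 in *aadd*. All groups overlapped and no comparison was called. For WT proliferative against WT resting the log2 FC was 0.65 ± 0.29 (SE; unadjusted *P* = 0.0619, adjusted *P* = 0.319 in limma). Within a library, the ratio of *Ctgf* to *Cyr61* was 0.485 to 0.887 in WT resting, 0.82 to 1.31 in WT proliferative and 0.979 to 1.30 in *aadd*, and 1.43 to 2.17 in WT hypertrophic, above every other library. Over the 12 libraries the log2 levels of these genes had *r* = -0.145, a description of libraries that share groups.

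*Wisp1*, at chr15:66891393-66923199, was raised in the hypertrophic compartment. It was at 11.5, 18.7 and 25.6 NRPKM in WT resting and at 10.7, 11.9 and 20.2 in WT proliferative. The hypertrophic libraries had 42.5, 63.2 and 71.8, and the *aadd* libraries 26.2, 35.2 and 24.3. Every hypertrophic library exceeded all the others, replicate 1 with the smallest margin, and *aadd* overlapped WT resting through a single library. *Wisp1* rose with a log2 FC of 2.07 ± 0.33 (SE; unadjusted *P* = 0.000629, adjusted *P* = 0.116) over WT proliferative and of 1.70 ± 0.35 (adjusted *P* = 0.0442) over WT resting in limma. Osteoblast markers, which *Wisp1* is known to accompany, were also higher in the hypertrophic libraries, at 888, 1334 and 2058 summed NRPKM of 10 genes in replicates 1, 2 and 3. The sum was 338 to 861 in WT proliferative, 167 to 376 in WT resting and 117 to 402 in *aadd*. Within the list, *Sp7*, an early osteoblast factor, was at 126, 112 and 154 NRPKM in the hypertrophic libraries. It was already at 85.3, 61.7 and 93.2 in WT proliferative, where *Wisp1* overlapped WT resting. *Sp7* was at 1.46 to 10.9 in WT resting and 2.55 to 6.07 in *aadd*. *Bglap2*, a marker of mature osteoblasts, was at 0, 2.62 and 4.28 in the hypertrophic libraries and at 0 in all others. The part of these markers in the *Wisp1* result was not tested.

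*Wisp3*, at chr10:39150971-39163794, ran the other way. It was at 7.11, 20.7 and 24.6 NRPKM in WT resting, 8.19, 9.92 and 12.8 in WT proliferative and 7.67, 13.5 and 8.95 in *aadd*. The hypertrophic libraries were at 2.31, 2.21 and 2.26, which rest on about 7.67 to 10.1 reads each. All 3 lay below every other library, replicate 1 included. *Wisp3* fell with a log2 FC of -2.11 ± 0.21 (SE; unadjusted *P* = 4.39e-05, adjusted *P* = 0.0792) against WT proliferative and of -2.71 ± 0.46 (adjusted *P* = 0.0284) against WT resting in limma. On the opposite strand it overlaps *Tube1*, which reached 8.93 NRPKM at most, and reads in the overlap could be shared.

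The ratio of *Wisp1* to *Wisp3* within a library set the hypertrophic and *aadd* libraries apart from the others, while WT resting and WT proliferative overlapped. It was 0.903 to 1.62 in WT resting, 1.2 to 1.58 in WT proliferative, 18.4 to 31.7 in WT hypertrophic and 2.60 to 3.42 in *aadd*. The *aadd* values lay above all WT resting and proliferative ones and below all hypertrophic ones. This ratio was chosen after its values were seen and is given without a test. The *aadd* libraries also stood apart in the summed NRPKM of 10 joint markers, at 204 to 233 against 88.8 to 162 in WT resting. That sum was 68.1 to 93.1 in WT proliferative and 69.3 to 99.5 in WT hypertrophic, the group with the highest ratio. Within the list 5 of 9 tested were called higher in *aadd*, against 6.56% of all genes called, and none passed adjustment. *Erg* and *Osr2* overlapped WT resting, and *Prg4* had a lower mean (2.62 against 14.4), with overlap. The part of these markers in the ratio was not tested.

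**Figure D3:**
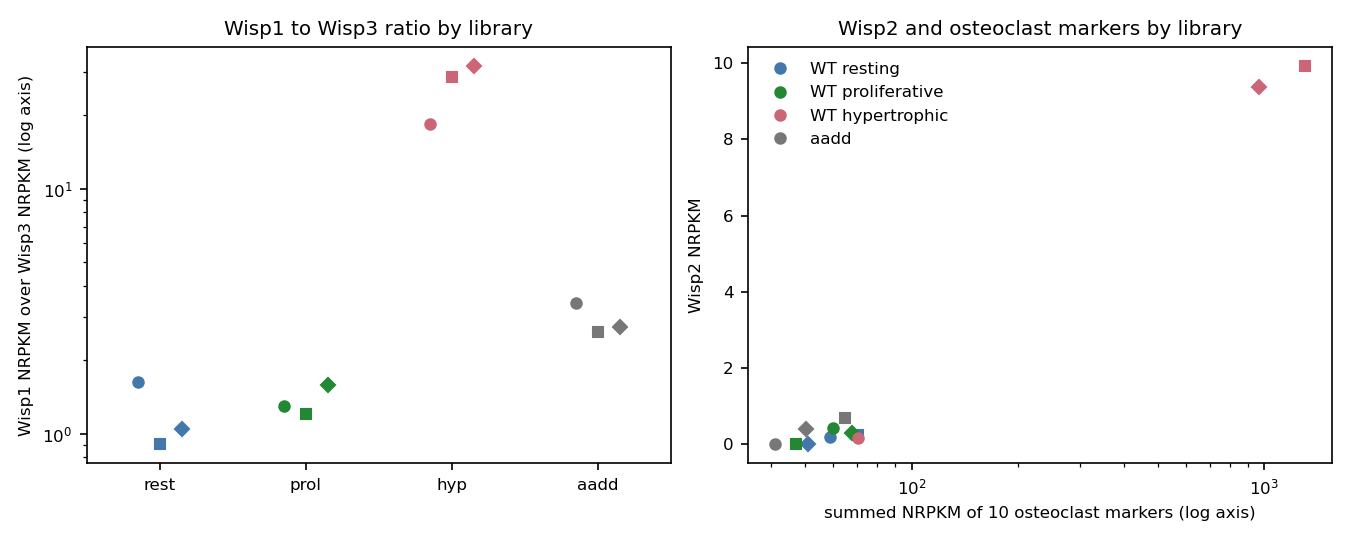
Left, *Wisp1* NRPKM over *Wisp3* NRPKM by library (log axis), with WT hypertrophic at 18.4 to 31.7 and *aadd* at 2.60 to 3.42. Right, *Wisp2* NRPKM against the summed NRPKM of 10 osteoclast markers (log axis), where hypertrophic replicates 2 and 3 stand apart from the other 10 libraries; circles, squares and diamonds are replicates 1, 2 and 3.

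*Wisp2*, a CCN protein without the C-terminal domain of the others, at chr2:163820834-163833147, was close to nil outside 2 libraries. It was at 0.191, 0.235 and 0 NRPKM in WT resting, 0.430, 0 and 0.298 in WT proliferative and 0, 0.692 and 0.394 in *aadd*, at most about 2.61 reads. The hypertrophic libraries had 0.159, 9.92 and 9.38. The latter values rest on about 55.2 and 48 reads. Replicates 2 and 3 are the libraries with high sums of the osteoclast, endothelial and macrophage marker lists, the last carried mostly by *Cd68*, *Tyrobp* and *Csf1r*. They were also higher in the erythroid sum (373 and 411 against 63.4) and in *Dmp1* (134 and 171 against 12.2) and *Mepe* (11.2 and 16.2 against 0.636), genes of late osteoblasts and osteocytes. Replicate 1 had no more *Wisp2* than the other groups. In the fit without the filter, unadjusted *P* was 0.0879 against WT proliferative and 0.0621 against WT resting in limma. *Mmp13* and *Spp1* of the hypertrophic list were higher in replicates 2 and 3 as well. The part of any of these markers in the *Wisp2* signal was not tested.

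*Nov*, at chr15:54745928-54753761, a CCN gene expressed in embryonic cartilage, was high in some resting and *aadd* libraries. It was at 5.15, 27.8 and 24.8 NRPKM in WT resting and at 4.25, 35.7 and 11.8 in *aadd*. In WT proliferative it was at 4.04, 6.37 and 3.13, and in WT hypertrophic at 4.35, 2.87 and 4.54. WT resting replicate 1 was as low as the proliferative libraries, and it was also the lowest resting library for *Wisp3*. The summed NRPKM of 8 resting or periarticular markers was 166 in that library, against 376 and 275 in replicates 2 and 3, a gap that lies mostly in *Ucma* (16.9, 205 and 91.6). In *aadd* this sum was lowest, at 211 against 245 and 231, in replicate 2, where *Nov* was highest. The sum of 10 tendon and perichondrium markers was 395, 936 and 852 in WT resting and 608, 1336 and 644 in *aadd*, lowest and highest in the same libraries as *Nov* in *aadd* and in WT resting. It was 440, 471 and 1175 in WT proliferative and 615, 1281 and 1982 in WT hypertrophic, where *Nov* stayed at or below 6.37. Most of the hypertrophic sum was *Col1a1* and *Col1a2* (723 and 327 NRPKM in replicate 2), and other markers of the list ran the other way. Against WT resting, *Col1a1* and *Col1a2* were called higher in WT hypertrophic, and *Fmod*, *Col14a1*, *Scx* and *Mkx* lower. These were 6 of 8 tested, against 13.0% of all genes, and none passed adjustment. *Fmod* was at 64.9, 241 and 305 in WT resting and 9.4, 43.8 and 34.5 in WT hypertrophic. The part of these markers in the result was not tested. *Nov* fell with a log2 FC of -1.80 ± 0.66 (SE; unadjusted *P* = 0.0321, adjusted *P* = 0.26) from WT resting to WT proliferative and of -1.97 ± 0.66 (unadjusted *P* = 0.0224, adjusted *P* = 0.124) to WT hypertrophic in limma. The first call was lost without WT resting replicate 2 or 3 or WT proliferative replicate 1 or 3, with log2 FC from -2.58 to -1.37 as single libraries were left out, and the second without WT resting replicate 2 or 3 or WT hypertrophic replicate 2, with -2.74 to -1.54.

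Counted by comparison, from resting to proliferative cells 1 of the 8 tested was called (*Nov*), against 5.53% of all genes, and none passed adjustment, against 0.622%. At an unadjusted *P* up to 0.05 there was also 1 of the 8, against 17.1% of all genes. None of the 8 had libraries that did not overlap between the groups, against 24.0% of all genes. The median log2 FC was 0.06 over the 8 genes and -0.06 over all genes tested. With the replicate block 0.0823% of all genes passed adjustment, and with single libraries left out 0.0914% to 0.485%. None of the 8 was among them.

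From proliferative to hypertrophic cells, 2 of the 8 were called (*Wisp1* and *Wisp3*), against 9.67% of all genes. Adjustment left no gene of the 10936 in limma, a share of 0%, although 2115 had an unadjusted *P* up to 0.05. With all 12 libraries in one fit 705 genes passed it (6.45%), among them 3 of the 8. Libraries of the groups did not overlap for 3 of the 8 (*Cyr61*, *Wisp1* and *Wisp3*), against 24.2% of all genes. The median log2 FC was -0.16 over the 8 genes and 0.04 over all genes. Without hypertrophic replicate 1 the calls were the same 2 genes, and 3 of the 8 passed adjustment, while over all genes 18.4% were then called and 17.4% passed adjustment.

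Hypertrophic against resting cells, which share their libraries with the comparisons above, gave 3 of 8 called (*Nov*, *Wisp1* and *Wisp3*), against 13.0% of all genes. After adjustment 3 of the 8 passed (*Cyr61*, *Wisp1* and *Wisp3*), against 6.36%, but none did without the filter or without WT resting replicate 2 or 3 or WT hypertrophic replicate 2 or 3, and the share over all genes ran from 1.43% to 24.2% as single libraries were left out. Libraries did not overlap for 4 of the 8 (*Cyr61*, *Nov*, *Wisp1* and *Wisp3*), against 32.0%. The median log2 FC was -0.10 over the 8 genes and -0.02 over all genes.

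In the *aadd* mutants none of the 8 was called, against 6.56% of all genes, and none had an adjusted *P* under 0.05, against 0.119%, or an unadjusted *P* up to 0.05 in limma, against 9.58%. None had libraries that did not overlap, against 15.4%. The median log2 FC was -0.14 over the 8 genes and 0.01 over all genes. The lowest unadjusted *P* of the 8 was that of *Wisp1*, with a log2 FC of 0.67 ± 0.32 (SE; unadjusted *P* = 0.0701, adjusted *P* = 0.576), followed by *Wwtr1*, with -0.31 ± 0.19 (unadjusted *P* = 0.146), and *Ctgf*, with 0.40 ± 0.26 (unadjusted *P* = 0.164). The interval of the *Wisp1* difference ran from -0.07 to 1.42, and that of *Nov* from -2.46 to 1.81, so sizeable differences remained possible at 3 libraries a group. *Wisp1* was called without WT resting replicate 3, and *Wisp3* without WT resting replicate 1.

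**Figure D4:**
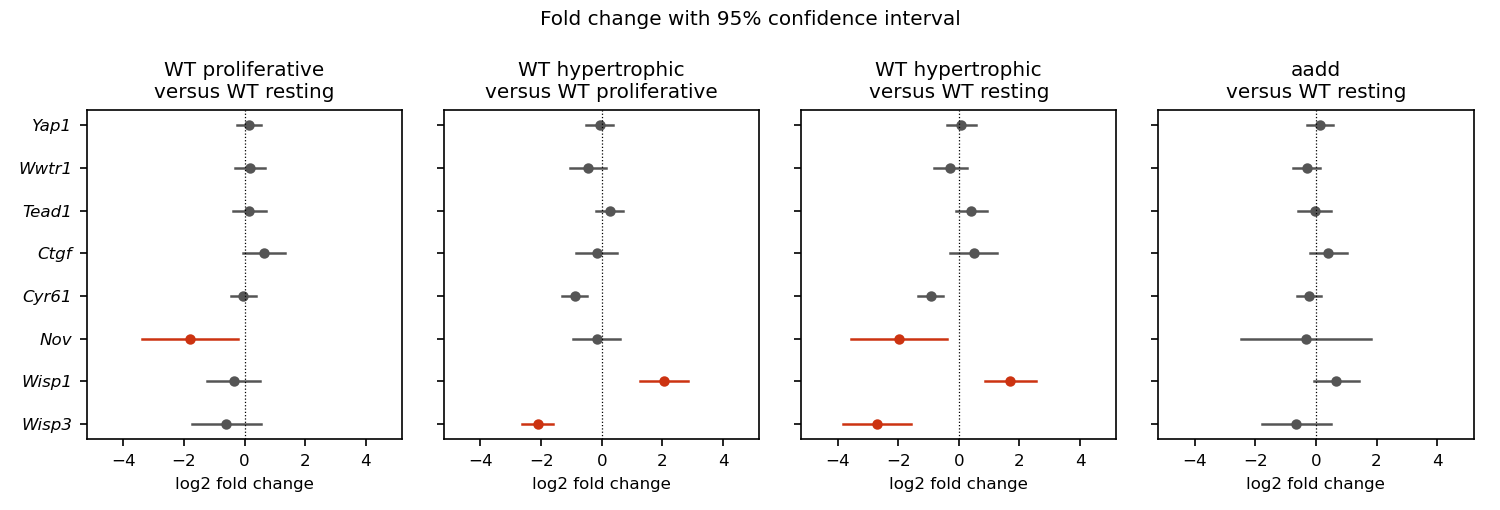
Log2 fold change of the 8 genes tested in each comparison, with the 95% confidence interval from limma (n = 3 libraries a group). Red marks calls, which are *Nov* in both comparisons of WT compartments with WT resting and *Wisp1* and *Wisp3* in both hypertrophic comparisons; no *aadd* value is red.

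Of 25 genes for Hippo kinases and upstream proteins, 23 were tested, and 2, 1, 2 and 1 were called in the 4 comparisons, in which 5.53%, 9.67%, 13.0% and 6.56% of all genes were called. From WT resting to WT proliferative, 2 fell, *Fat4* (53.8, 40.4 and 31.1 NRPKM to 24.3, 9.15 and 17.5; log2 FC -1.37 ± 0.39 SE, adjusted *P* = 0.19) and *Dchs1* (29.0, 26.4 and 26.8 to 19.2, 5.94 and 17.3; -1.12 ± 0.44, adjusted *P* = 0.284), which encode the giant cadherins that bind one another across cells. In WT hypertrophic *Frmd6* (Willin), an activator of the cascade, rose to 16.9, 29.1 and 30.4 NRPKM over both WT proliferative (13.7, 5.51 and 6.95; log2 FC 1.60 ± 0.41, adjusted *P* = 0.16) and WT resting (1.21 ± 0.29, adjusted *P* = 0.0633), and *Amotl2*, which binds Yap, fell from 18.2, 22.6 and 20.6 in WT resting to 10.5, 8.31 and 7.36 (-1.23 ± 0.20; adjusted *P* = 0.0246 in limma). In *aadd* 1 gene rose, again *Frmd6* (11.6, 8.46 and 12.1 NRPKM in WT resting to 20.3, 16.2 and 16.6; log2 FC 0.72 ± 0.20, adjusted *P* = 0.331). The core kinases *Stk3*, *Stk4*, *Lats1* and *Lats2* were tested and not called in any of the 4 comparisons. *Lats1* lay between 30.2 and 51.7 NRPKM in all 12 libraries.

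Of 22 genes besides *Ctgf* and *Cyr61* that are often listed as Yap and Tead targets, 15 were tested. In the 4 comparisons 2, 1, 5 and 1 were called, beside the 5.53%, 9.67%, 13.0% and 6.56% of all genes given above. *Amotl2*, *Ajuba*, *Lats2* and *Ptpn14* are also in the Hippo list, so the *Amotl2* call below is the one given there. *Ankrd1*, a usual readout, was not tested, at no more than 0.814 NRPKM. WT proliferative against WT resting gave 1 rise, *Ccdc80* (4.94, 3.4 and 8.23 NRPKM to 14.2, 24.8 and 35.2; log2 FC 2.14 ± 0.43 SE, adjusted *P* = 0.104), and 1 fall, *Axl* (19.6, 30.2 and 28.6 to 13.6, 4.39 and 10.3; -1.58 ± 0.43, adjusted *P* = 0.179). WT hypertrophic against WT proliferative gave 1 rise, *Igfbp3* (log2 FC 3.12 ± 0.81, adjusted *P* = 0.163), a binding protein for insulin-like growth factors. WT hypertrophic against WT resting gave 3 rises (*Ccdc80*, *Igfbp3* and *Asap1*) and 2 falls (*Axl* and *Amotl2*), of which *Ccdc80*, *Axl* and *Amotl2* passed adjustment in limma (adjusted *P* = 0.00783, 0.0246 and 0.0246) and *Igfbp3* and *Asap1* did not (0.106 and 0.117). The hypertrophic libraries had 42.3, 36.8 and 39.3 NRPKM of *Ccdc80*, 36, 56.4 and 56.3 of *Asap1* and 9.7, 11.1 and 8.91 of *Axl*. *Igfbp3* measured 17.7 NRPKM in the first hypertrophic library, against 50.1 and 55.9 in replicates 2 and 3, the libraries rich in osteoclast and endothelial markers. It was at 5.63, 1.28 and 9.54 in WT proliferative, 2.77, 17.7 and 6.28 in WT resting and 8.68, 31.8 and 13.3 in *aadd*. Hypertrophic replicate 1 was thus level with WT resting replicate 2. The part of those markers in the *Igfbp3* rise was not tested. In *aadd* 1 rose, *Rbms3* (log2 FC 0.71 ± 0.21, adjusted *P* = 0.355). The median log2 FC over the 15 was -0.47, 0.30, -0.03 and 0.16 in the 4 comparisons, beside -0.06, 0.04, -0.02 and 0.01 over all genes tested.

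Among 12 receptors and other surface partners of CCN proteins, 10 were tested. *Itgav*, the integrin chain alpha v, rose in WT hypertrophic over WT proliferative (log2 FC 1.35 ± 0.54 SE; unadjusted *P* = 0.0456, adjusted *P* = 0.254) and over WT resting (1.51 ± 0.55; unadjusted *P* = 0.0316, adjusted *P* = 0.149 in limma). Hypertrophic replicate 1 had 18.8 NRPKM of it, within the range of the other groups, whereas 76.5 and 68.2 were found in replicates 2 and 3, the libraries rich in osteoclast markers. Osteoclasts are known to carry this integrin. The same libraries were higher in *Mmp13* and *Spp1*. The part of osteoclasts, or of these other differences, in the result was not tested. *Fgfr2*, a fibroblast growth factor receptor, was lower in WT hypertrophic (45.4, 39.0 and 41.3 NRPKM) than in WT resting (76.2, 66.2 and 73.8), with a log2 FC of -0.78 ± 0.16 (SE; adjusted *P* = 0.0433 in limma), short of the 2-fold limit. In each of these hypertrophic comparisons 1 of the 10 was called, against 9.67% and 13.0% of all genes. No partner was called from WT resting to WT proliferative or in *aadd*, against 5.53% and 6.56%. The other Tead and Vgll factors gave 1 call in all, the *Tead2* rise above, among 2 tested of 6. In that comparison 9.67% of all genes were called.

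**Figure D5:**
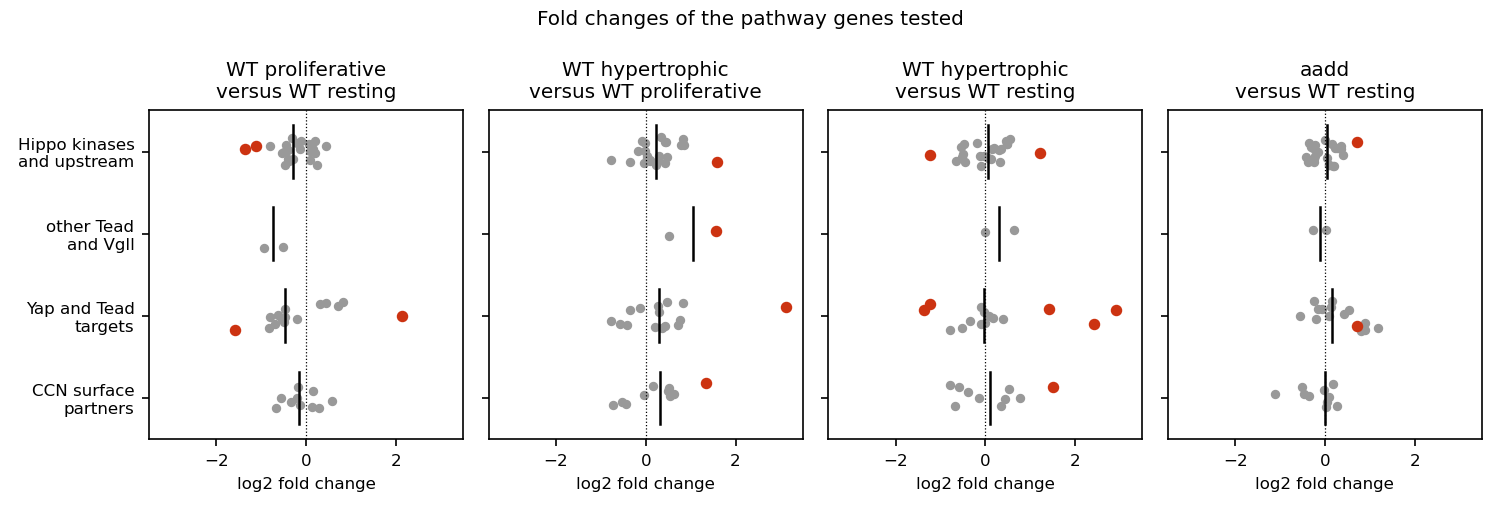
Log2 fold change of every pathway gene tested (points) in the 4 comparisons, by list, with the list median as a vertical bar and called genes in red. Most points lie within 1 of 0 on the log2 scale, and the hypertrophic comparisons hold the widest rises, *Igfbp3* and *Ccdc80*.

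*Ctgf* and *Cyr61* are also rapid-response genes, so immediate-early genes were read in the same libraries. Of 10 such genes, 6 were tested. In *aadd*, where 6.56% of all genes were called, 3 of these rose, *Dusp1* (10.8, 10.1 and 22.5 NRPKM to 30.7, 46.4 and 27.1), *Jun* (6.71, 7.75 and 7.38 to 17.4, 16.0 and 15.9) and *Klf2*, with log2 FC of 1.32 ± 0.36, 1.16 ± 0.15 and 0.70 ± 0.27 (SE; adjusted *P* = 0.324, 0.0758 and 0.469 in limma). The other genes tested were not called. Mean NRPKM was lower in *aadd* than in WT resting for *Egr1* (9.68 against 20) and *Fos* (2.19 against 4.09), with overlap, and alike for *Ier2* (5.82 against 5.36). *Ctgf* and *Cyr61* were not called in *aadd* either. In WT hypertrophic *Egr1* and *Dusp1* rose over WT proliferative (adjusted *P* = 0.231 and 0.163 in limma; 9.67% of all genes were called there), with *Egr1* reaching 60.1 and 70.5 NRPKM in replicates 2 and 3 but 7.32 in replicate 1 and *Dusp1* at 27.5 and 23.7 but 12.1, while *Cyr61* was lower in all 3. Against WT resting, 0 of the 6 were called in WT proliferative or in WT hypertrophic, where 5.53% and 13.0% of all genes were.

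The genes most like each member over the 12 libraries were found from Pearson's *r* of log2 levels among all genes tested, as a description of libraries that share 4 groups. *Wisp3* was closest to *Col16a1*, a fibril-associated collagen, *Crtc3* and *Zfp648* (*r* = 0.961, 0.956 and 0.946). For *Cyr61* they were *Mfi2*, *Phyh* and *Slc27a6* (0.948, 0.945 and 0.94), and for *Wisp1* *Itsn2*, *Epas1*, a hypoxia-inducible factor, and *BC028528* (0.958, 0.942 and 0.926). *Wwtr1* was near *Slc36a1os*, *3110079O15Rik* (*Snorc*), a cartilage proteoglycan, and *Ddc* (0.933, 0.928 and 0.903). *Yap1* was near *Alg11*, *Gmcl1* and *Pkn2* (0.952, 0.878 and 0.867) and *Tead1* near *Ndufs3*, *Kpna6* and *Uqcrq* (0.901, 0.898 and 0.891). *Nov* was near *4833420G17Rik*, *Krba1* and *Atf7* (0.889, 0.882 and 0.872), and *Ctgf* near *Napepld*, *Edem3* and *Tgm2* (0.82, 0.819 and 0.818), the loosest of the 8. Between members the highest *r* was that of *Cyr61* with *Wisp3* (0.918) and the lowest that of *Cyr61* with *Wisp1* (-0.788).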

How the data were processed

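Total RNA (20 ng per sample) from LCM chondrocytes was amplified with a NuGen kit and sequenced. Reads of low quality, with several alignments or duplicated were removed by the authors, who computed values in GeneSpring 12.6.1 on mm10; the submitters' processing notes name TopHat. The deposited values are RPKM normalized between libraries (NRPKM), by a method, like the use of strand, not given in the sources used here. No counts are given. Depth was taken from the most frequent value of 1916 single-exon family genes, read as 1 read, and reads behind a gene are approximate.

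Values were tested as log2(NRPKM + 0.1) with limma 3.58.1 in R 4.3.3 (tables and plots in Python 3.11.15, numpy 2.4.6, pandas 2.3.3, matplotlib 3.10.9), on the 10936 genes that reach 5 NRPKM in 3 or more libraries. All fold changes are on this scale. Each comparison used its 6 libraries without covariates, by a moderated test as the study's methods name (they add an Audic-Claverie test on pooled reads for *aadd*, not run here), and the 4 groups were compared by the moderated F test. Replicate numbers pair WT resting with WT proliferative by the data alone (*r* of same-numbered deviations 0.281, 0.179 and 0.198). The procedure was tested on simulated data. Alternatives were a pseudocount of 1, quantile normalization, median of ratios, no filter, one fit of all 12 libraries, a variance trend, a replicate block and each library left out. All 10 members are named, with called genes of each pathway list and the 3 genes most like each member. Marker lists of cell types are given by sums and selected genes, and not all their called genes are named. Members and lists were chosen with earlier results of these data known. Gene positions are mm10, from the deposited table.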

Additional observations from a re-analysis of the deposited data

How the results depend on the processing

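Among the 10 genes, the number called stayed within 1.5 times the reported count under every alternative that kept all libraries, with 1 exception, although the genes were not always the same. Between *aadd* and WT resting 1 gene was called with a variance trend (*Wisp1*) and 0 otherwise. Leaving out single libraries gave 0 to 2 for WT proliferative against WT resting, 2 throughout for WT hypertrophic against WT proliferative, 2 to 4 for WT hypertrophic against WT resting, 0 to 1 for *aadd* and 3 to 5 over the 4 groups. *Wisp1* and *Wisp3* were called in both hypertrophic comparisons under all 13 alternatives. Their adjusted *P* ranged from 0.0135 to 0.449 and from 0.00885 to 0.325 against WT proliferative, and from 0.00886 to 0.16 and from 0.00219 to 0.123 against WT resting; that of *Cyr61* against WT resting ranged from 0.0034 to 0.146. Without the filter, which also tests *Tead3* and *Wisp2*, the single call of WT proliferative against WT resting was *Tead3* and not *Nov*, which leaves 0 of the 8. With the replicate block no call among the 8 was lost or gained in the 4 pairwise comparisons, 4 genes were called over the 4 groups, and 1 of the 8, against 3, passed adjustment for WT hypertrophic against WT resting; the numbers were not shown to pair there (*r* = 0.066, 0.063 and 0.111), nor for WT hypertrophic with WT proliferative (-0.058, 0.054 and 0.124) or *aadd* with WT resting (0.051, 0.28 and -0.097). Of 416 refitted fold changes 13 changed sign, all near 0 or in *Nov*. *Cyr61* in WT proliferative against WT resting came to 0.003 by median of ratios and -0.117 to 0.058 with single libraries left out. Likewise left-out libraries gave, for WT hypertrophic against WT proliferative, -0.191 to 0.01 (*Yap1*), -0.324 to 0.083 (*Ctgf*) and -0.391 to 0.109 (*Nov*), for WT hypertrophic against WT resting -0.039 to 0.198 (*Yap1*), and for *aadd* -0.18 to 0.147 (*Tead1*) and -1.102 to 0.424 (*Nov*). The cause was not tested. Calls over all genes without the filter were 1604, 2082, 2676 and 1306, against 605, 1057, 1426 and 717, with 21627 genes tested, and 2007 against 1057 for WT hypertrophic against WT proliferative without hypertrophic replicate 1 and 705 and 658 without replicate 2 or 3. At this depth *Wisp2* outside 2 libraries, *Wisp3* in hypertrophic cells, and *Tead3* in WT proliferative replicates 2 and 3 rest on about 10 reads or fewer.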
